A study of Mus musculus with 65 samples.

Results

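Bulk RNA from the retinas of 11 C57BL/6J mice was compared, 5 fed control diet (CD) and 6 killed on day 7 of microglial repopulation (REPOP7), of 65 mice in the whole series. The mice were chosen by their titles and diet labels, with no use of measured values. All were adult wild-type mice of the 1 strain. The REPOP7 mice had eaten a diet with PLX5622, an inhibitor of the CSF1 receptor that removes microglia, and were then returned to control diet for 7 days. The labels do not give the days that these 6 mice spent on PLX5622, and CD mice had not eaten it. The titles of the libraries end in RE or re. CD held 3 RE mice (replicates 2, 3 and 4) and 2 re mice (replicates 1 and 2M, the latter labelled 2M unlike the other CD mice), and REPOP7 held 3 RE mice (replicates 4, 5 and 6) and 3 re mice (replicates 1, 2 and 3). What the suffix stands for is not given in the sources used here, and it was a term of the comparisons that hold both suffixes, except where its removal is stated.

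Microglia are the resident macrophages of the retina. They take up debris, tag synapses with complement and read signals from neurons through surface receptors, and their survival depends on CSF1 receptor signalling. In a bulk retina, transcripts used mainly by microglia stand in for these cells, and fewer cells and less RNA per cell cannot be told apart. The comparison asks which retinal transcripts differed from the control level 7 days after the inhibitor was withdrawn.

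The total count per library ranged from 7468474 to 8530865, and 3 counts, taken as the floor of a library, corresponded to between 0.352 and 0.396 CPM (counts scaled by library size). This floor covers counting error only. The first principal component of the 11 libraries carried 61.5% of the variance and separated RE from re completely. The share of counts from the mitochondrial genome was 2.78 to 3.28% in the re libraries and 4.08 to 4.71% in the RE libraries. The tissue markers were those of retina in every library, with Gnat1, the rod transducin subunit, at 13465 ± 674 CPM in CD (SD, n = 5) and 12515 ± 774 CPM in REPOP7 (n = 6). REPOP7 replicates 2 and 3 stood apart in a few genes of no microglial list, which were chosen after their values were seen. Gpx3, a secreted glutathione peroxidase, had 322 and 290 reads in these libraries and 22 to 89 in the other 9. Fbln1, an extracellular matrix protein, had 189 and 223 reads against 6 to 45, and Penk, the enkephalin precursor, had 145 and 147 against 34 to 85. Counts of called genes are therefore also given without both libraries.

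**Figure D1:**
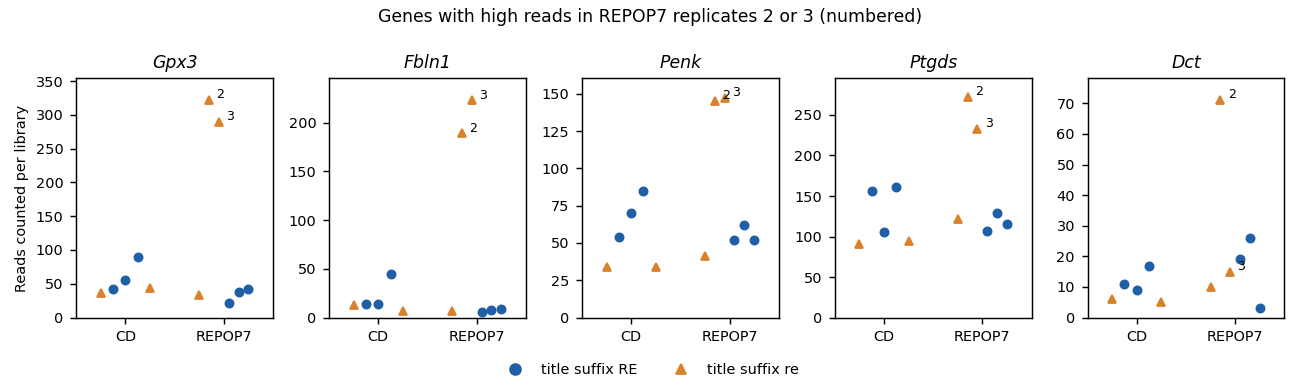
Reads counted per library (linear axis from 0) for 5 genes in the 5 CD and 6 REPOP7 libraries, with 1 point per mouse, circles for title suffix RE and triangles for re. REPOP7 replicates 2 and 3 are numbered and lie above all other libraries for Gpx3, Fbln1, Penk and Ptgds, while for the pigment gene Dct replicate 2 is high at 71 reads and replicate 3 is within the range of the others at 15.

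Of 23585 genes tested by edgeR's quasi-likelihood test with the title suffix as a covariate, 16 (0.0678%) were differentially expressed genes (DEGs), which means here that the FDR (Benjamini-Hochberg) was below 0.01 and the absolute log2 fold change above 1. All 16 were down-regulated in REPOP7. They were Ctss, C1qa, Selplg, C1qc, Cx3cr1, C1qb, Laptm5, Tmem119, Mpeg1, Siglech, Pld4, P2ry12, Ly86, Tyrobp, P2ry13 and Itgam. At an FDR under 0.05 without a fold threshold, 21 genes (0.0890%) were lower, the further 5 including Csf1r, Cyp26b1, Vsir and Myo1f. No gene was higher at this FDR, by edgeR's quasi-likelihood test or by DESeq2, and 1 was by edgeR's likelihood ratio test. At an unadjusted p under 0.05, 667 genes were lower (2.83%) and 681 higher (2.89%).

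In 20 of the 21 genes, every REPOP7 mouse lay below every CD mouse, an arrangement found in 58 of all genes tested (0.246%). The opposite arrangement, every REPOP7 mouse above every CD mouse, was found in 32 genes (0.136%). Without REPOP7 replicates 2 and 3, 10 genes were DEGs and 16 were lower at an FDR under 0.05, all of them among the 16 and the 21. Without the suffix term these counts were 14 and 17, and 14 and 17 genes were shared.

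The 16 DEGs together received 272 to 430 reads in a CD retina and 13 to 35 in a REPOP7 retina. In CPM, CD ranged from 35.9 to 50.5 (median 40.9) and REPOP7 from 1.63 to 4.53 (median 2.46). Over the 6 REPOP7 mice, 126 reads came from the 16 genes, and 66 of these (52.4%) were from Mpeg1 and 21 (16.7%) from Laptm5. The other 14 genes had 39 reads in 6 mice against 1294 in the 5 CD mice.

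**Figure D2:**
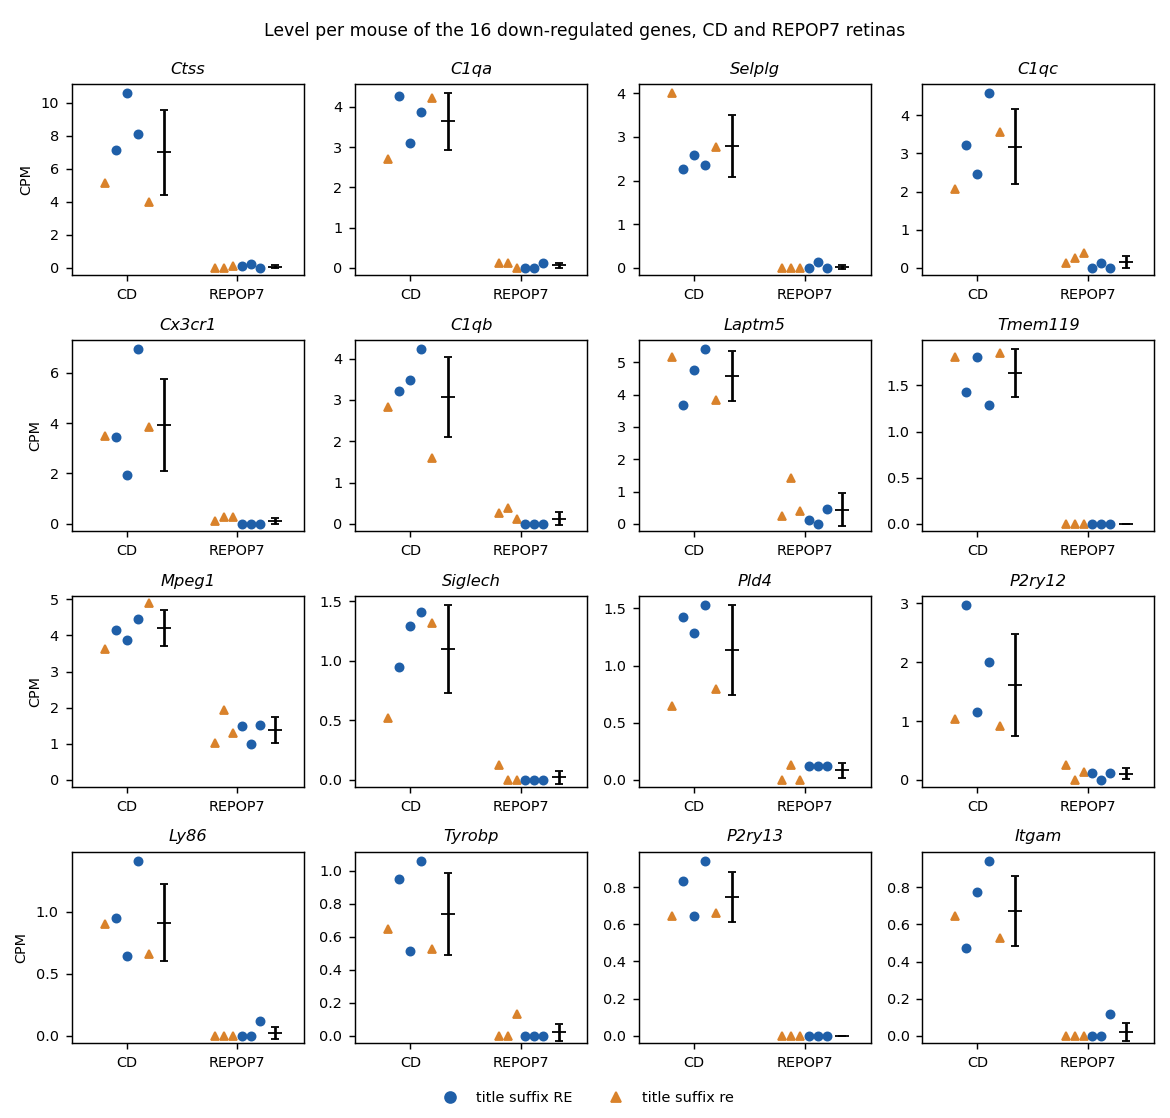
Level in CPM (linear axis, 1 panel per gene) of the 16 DEGs in each CD (n = 5) and REPOP7 (n = 6) retina, circles for title suffix RE and triangles for re, with the mean and SD to the right of each group. In every panel all REPOP7 mice lie below all CD mice, and Tmem119 and P2ry13 are at 0 in all 6.

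PU.1, a transcription factor of the ETS family on which macrophages depend, binds purine-rich sequences with the letters GAGGAA. Promoter windows of 300 bases (250 before and 50 after the start of the gene, RefSeq, build GRCm38.p6) were matched by symbol for 15 of the 21 genes, 1 window each. Among those with no matched window were C1qa, Selplg, Tmem119, Csf1r and Tyrobp. The letters GAGGAA, on either strand, were in the windows of 9 of the 15 genes (60.0%) and in 28.3% of all 32851 windows of the same length. The longer GAGGAAGT, which contains the first motif, was in 3 of the 15 (20%) and in 3.20% of all windows. A match is a description of the sequence and not a site. The 3 windows with the longer motif, those of Ctss, C1qc and Pld4, are shown whole. The motif is in capitals as it reads on the strand of the gene (ACTTCCTC is GAGGAAGT on the other strand). Ctss is at chr3:95526536-95526835 (+), C1qc at chr4:136892865-136893164 (-) and Pld4 at chr12:112760405-112760704 (+).
Ctss: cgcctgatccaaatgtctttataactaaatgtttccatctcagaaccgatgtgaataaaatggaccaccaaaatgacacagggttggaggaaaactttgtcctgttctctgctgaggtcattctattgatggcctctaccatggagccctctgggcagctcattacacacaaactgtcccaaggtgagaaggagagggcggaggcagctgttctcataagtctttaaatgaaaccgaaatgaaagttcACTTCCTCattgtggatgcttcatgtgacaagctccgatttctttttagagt
C1qc: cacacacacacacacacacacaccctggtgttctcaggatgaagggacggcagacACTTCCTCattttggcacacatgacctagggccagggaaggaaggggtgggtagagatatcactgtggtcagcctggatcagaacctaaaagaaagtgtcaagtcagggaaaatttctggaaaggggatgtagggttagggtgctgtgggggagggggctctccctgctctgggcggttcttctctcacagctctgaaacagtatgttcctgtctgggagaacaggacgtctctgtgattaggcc
Pld4: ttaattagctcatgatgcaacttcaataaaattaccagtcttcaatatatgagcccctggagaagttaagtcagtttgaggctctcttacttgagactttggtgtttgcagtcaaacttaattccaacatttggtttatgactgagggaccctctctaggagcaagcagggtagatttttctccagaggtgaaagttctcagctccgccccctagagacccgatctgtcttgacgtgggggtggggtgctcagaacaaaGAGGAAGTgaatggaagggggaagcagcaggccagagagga

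For the other 6 genes with GAGGAA, 26 bases around the first match are shown, read on the strand on which the motif reads GAGGAA. It lay 30 bases before the start of C1qb and 38 before that of Laptm5, 48 before P2ry13, 84 before Itgam (the first of 3 matches) and 4 before Siglech. In Myo1f it lay 30 bases after the start. No match was in the windows of P2ry12, Cyp26b1, Cx3cr1, Vsir, Ly86 and Mpeg1.
C1qb: agcaggatggGAGGAAcagaggggtg
Laptm5: gaacaaaaaaGAGGAAgccacaggct
P2ry13: aaggggaaatGAGGAAggaaaagcag
Itgam: ttttctcccgGAGGAAggctacagag
Siglech: gctcacagaaGAGGAActagggacag
Myo1f: gctgttacaaGAGGAActagggccaa

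The list of surface receptors and signalling genes held the most called genes, and it was also the longest of the microglial lists. Of 20 listed receptors and signalling genes, all 20 were tested, 8 were lower at an FDR under 0.05 and 18 at an unadjusted p under 0.05. Beside this list and those below, the shares lower over all genes tested were 0.0890% and 2.83%. The median fitted log2 fold change of the list was -2.87 (-2.23 with the 3 genes at 0 in all REPOP7 mice set to their bounds), against 0.0042 over all genes tested. Cx3cr1, the receptor for neuronal fractalkine (chr9:119901616-120069879), had 27, 29, 15, 59 and 29 reads in CD replicates 1, 2, 3, 4 and 2M. In REPOP7 it had between 0 and 2 reads (median 0.5). The groups were far apart, with 3.92 ± 1.83 CPM in CD (SD, n = 5) and 0.108 ± 0.128 CPM in REPOP7 (n = 6), a fitted log2 fold change of -5.04 ± 0.518 (SE) and an FDR of 3.56e-05 by edgeR's quasi-likelihood test. Here and below, the SE of a gene with so few REPOP7 reads can understate its counting error. The exons of Cx3cr1 overlap those of Gm33858 on the opposite strand.

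Tmem119, a transmembrane protein used to tell microglia from other macrophages (chr5:113793729-113800516), had 14, 12, 14, 11 and 14 reads in the CD mice and 0 in all 6 REPOP7 mice. CD was at 1.64 ± 0.257 CPM (SD, n = 5), and against the floor of 3 counts per library REPOP7 was at least 4.32-fold lower, with an FDR of 0.000137 by edgeR's quasi-likelihood test. P2ry13, a purinergic receptor, was also at 0 in all 6 mice, from 5, 7, 5, 8 and 5 reads in CD. Its CD level was 0.744 ± 0.135 CPM, and against the same floor REPOP7 was at least 1.97-fold lower. Both bounds are set per library and do not pool the reads of a group. Pooled, Tmem119 had 65 reads in CD and 0 in REPOP7, and P2ry13 had 30 and 0. The bounds are therefore not comparable with the ratios of pooled reads given for other genes.

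P2ry12, the ADP receptor that steers microglial processes towards injury, had 8, 25, 9, 17 and 7 reads in CD and 0 to 2 (median 1) in REPOP7. The log2 fold change was -3.69 ± 0.512. The exons of P2ry12 overlap those of Med12l on the opposite strand, and the counting is not stated to use strand. Selplg, the ligand of P-selectin, had 31, 19, 20, 20 and 21 reads in CD and 1 read in the 6 REPOP7 mice together. The ratio of CD to REPOP7 was 132 (95% exact counting interval 23.2 to 5264). Siglech, a sialic acid-binding lectin, had 4 to 12 reads in the CD mice and Itgam, the integrin chain CD11b, 4 to 8, and each had 1 read over all REPOP7 mice. Their ratios were 52.4 (8.92 to 2115) and 32.1 (5.3 to 1315). Each of these intervals rests on a single read. The exons of Itgam overlap those of Gm49368 on the same strand.

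Complement C1q, the initiator of the classical pathway that microglia make in the retina, was lower in all 3 of its chains. C1qa, C1qb and C1qc lie next to each other on chromosome 4 (from 136880129 to 136898803, minus strand). The list held 7 complement genes, of which 6 were tested and 3 called, and its median log2 fold change was -2.94. C1qa had 21, 36, 24, 33 and 32 reads in CD and 0 or 1 in REPOP7 (log2 fold change -5.53 ± 0.412, FDR 3.87e-07 by edgeR's quasi-likelihood test). C1qb had 22, 27, 27, 36 and 12 reads in CD and 0 to 3 (median 0.5) in REPOP7 (-4.4 ± 0.464). C1qc had 16, 27, 19, 39 and 27 in CD and 0 to 3 (median 1) in REPOP7 (-4.29 ± 0.434). No REPOP7 mouse reached the lowest CD mouse for any of the chains.

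The remaining C1q reads were unevenly spread between the suffixes, a pattern chosen after the values were seen. The 3 chains together had 4, 6 and 4 reads in the REPOP7 re mice and 0, 1 and 1 in the RE mice. In CD the same sum was 59 and 71 in the re mice and 70 to 108 in the RE mice. The difference of the REPOP7 effect between the suffixes had an unadjusted p of 0.00278 for C1qb, 0.0477 for C1qc and 0.485 for C1qa, and the adjusted p was 1 for each (edgeR's quasi-likelihood test of the interaction). Replicates 2 and 3, which stood apart in Gpx3 and Fbln1, are 2 of these 3 re mice, and replicate 1, which did not, had 4 C1q reads. Their part in the result was not tested.

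Genes of the lysosome, endosome and phagosome also held called genes. Of 15 listed and tested, 6 were lower at an FDR under 0.05 and 10 at an unadjusted p under 0.05, with a median log2 fold change of -1.23. Ctss, cathepsin S, a lysosomal protease that also processes antigen (chr3:95526786-95556403), had the smallest p of all genes. It had 40, 60, 82, 69 and 30 reads in CD and 0 to 2 (median 0.5) in REPOP7, that is 6.99 ± 2.58 CPM against 0.0844 ± 0.103 CPM. The log2 fold change was -6.06 ± 0.353, with an FDR of 1.01e-08 by edgeR's quasi-likelihood test. With 4 reads over all REPOP7 mice, this SE can understate the counting error.

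Laptm5, a lysosomal membrane protein of immune cells, microglia among them, had 40, 31, 37, 46 and 29 reads in CD and 0 to 11 (median 2.5) in REPOP7. The 11 reads were in replicate 2, one of the libraries that stood apart, and the next highest mouse had 4. The log2 fold change was -3.36 ± 0.372. Pld4, an endolysosomal nuclease, had 5 to 13 reads in CD and 0 or 1 in REPOP7 (-3.46 ± 0.464), and Ly86, the partner of the receptor CD180, had 5 to 12 in CD and 1 read in all REPOP7 mice, a ratio of 44 (7.43 to 1786).

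Mpeg1, the pore-forming protein perforin-2 of phagocytes, was also a DEG but kept a larger share of its level. It had 28, 35, 30, 38 and 37 reads in CD and 8 to 15 (median 11) in REPOP7, with every REPOP7 mouse above 0. The means were 4.2 ± 0.499 and 1.39 ± 0.352 CPM, and the log2 fold change was -1.6 ± 0.2 (FDR 0.00043, edgeR's quasi-likelihood test).

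In the signalling group of TREM2, TYROBP and Fc receptors, 10 of 11 listed genes were tested, 1 was called and 7 were lower at an unadjusted p under 0.05 (median log2 fold change -1.11). Tyrobp, the adaptor that carries the signal of TREM2, had 5, 8, 4, 9 and 4 reads in CD and 1 read in all REPOP7 mice, a ratio of 35.7 (5.93 to 1456). Trem2 itself, the lipid-sensing receptor, had 5, 2, 5, 11 and 3 reads in CD and 2 reads in all in REPOP7 (FDR 0.139, edgeR's quasi-likelihood test), a ratio of 15.5 (3.87 to 134). Its groups did not overlap, but at 2 to 11 reads the difference did not pass the threshold. 3 alternatives, the likelihood ratio test, no gene filter and the fit of all groups, did call it.

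No transcription factor of the myeloid list was called among 10 tested, and 4 were lower at an unadjusted p under 0.05. The list median was -0.23. Sall1, which holds microglia in their identity but is also used by other retinal cells, had 16, 15, 14, 14 and 15 reads in CD and 3 to 11 (median 8) in REPOP7. No REPOP7 mouse overlapped CD, at 49.7% of the CD level (log2 fold change -1.01 ± 0.272, FDR 0.651, edgeR's quasi-likelihood test). Irf8, an interferon regulatory factor needed for microglia to form, stood at 51.2% (-0.99 ± 0.254, FDR 0.527, same test). Neither was called in any of 21 alternatives.

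The 21 called genes differed in the share of the control level that remained. In 16 of them the REPOP7 mean was under 10% of the CD mean, and in 5 it was above 30%. Among these 5 were Mpeg1 (33.0%), Vsir (33.2%), Cyp26b1 (55.2%) and Csf1r (61.6%), and none lay between Laptm5 (9.73%) and Mpeg1. Csf1r, the receptor that PLX5622 inhibits, had 150, 134, 106, 166 and 129 reads in CD and 78 to 92 (median 82) in REPOP7. The 6 REPOP7 mice lay in a narrow band, at 10.5 ± 0.884 CPM against 17.1 ± 2.45 CPM, and the log2 fold change was -0.72 ± 0.102 (FDR 0.0017, edgeR's quasi-likelihood test). The exons of Csf1r overlap those of Hmgxb3 on the opposite strand. The exons of Mpeg1, Vsir and Cyp26b1 overlap those of no other annotated gene.

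**Figure D3:**
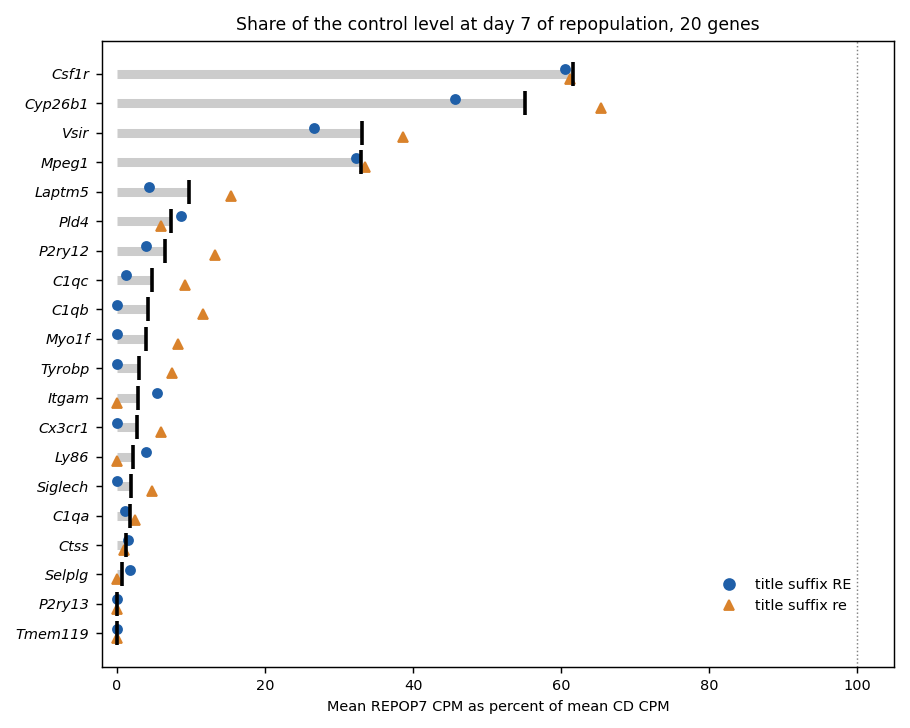
Mean REPOP7 level as a percent of the mean CD level in CPM for 20 of the 21 genes at an FDR under 0.05, with grey bars and black marks for all mice, circles for RE mice and triangles for re mice. The 16 lowest genes lie under 10%, and Mpeg1, Vsir, Cyp26b1 and Csf1r lie between 33.0% and 61.6%.

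Vsir, the checkpoint receptor VISTA of myeloid and T cells, had 21, 12, 19, 22 and 15 reads in CD and 2 to 9 (median 6) in REPOP7 (log2 fold change -1.61 ± 0.301, FDR 0.04, edgeR's quasi-likelihood test). Myo1f, a myosin of white blood cells, had 2 to 7 reads in CD and 1 in all REPOP7 mice, a ratio of 26.2 (4.23 to 1080), with an FDR of 0.0499 by the same test. Both belonged to no list. Vsir lost its call in 11 of 21 alternatives and Myo1f in 16 of 20.

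Cyp26b1, an enzyme that degrades retinoic acid, was in no list either. At chr6:84571414-84593908, it had 45, 57, 53, 56 and 54 reads in CD and 22 to 38 (median 27.5) in REPOP7. No mouse overlapped, at 6.62 ± 0.499 against 3.65 ± 0.869 CPM, with a log2 fold change of -0.89 ± 0.156 and an FDR of 0.0226 by edgeR's quasi-likelihood test. The share remaining was 45.7% in the RE mice and 65.4% in the re mice (unadjusted p of the interaction 0.0989, adjusted p 1, same test). Its call was lost in 13 of 21 alternatives, with FDRs up to 0.181 when single mice were left out, and it was lost without REPOP7 replicates 2 and 3 (FDR 0.138).

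Each suffix was then examined alone. In the RE mice (3 against 3), 6 genes were lower at an FDR under 0.05 (0.0256% of 23426), and the same 6, Ctss, C1qa, C1qb, C1qc, Laptm5 and Selplg, were DEGs. In the re mice (3 against 2), 2 genes were lower at this FDR (0.00781% of 25617), Ctss and Cx3cr1, both with an FDR of 0.0329, and none was a DEG. The 6 calls of the RE mice were lost without CD replicate 3 and without REPOP7 replicate 6 (0 genes each), and both calls of the re mice were lost without any 1 of the 5 mice. At an unadjusted p under 0.05 the re mice gave 805 genes, and DESeq2 called 2 DEGs in them. None of the 21 genes had a fitted fold change above 0 in either suffix, but the 21 were chosen in the pooled mice. The remaining share was higher in re than in RE mice for 14 of the 21 genes, lower for 5 and equal at 0 for 2. In the test of the interaction, 0 of 23585 genes passed an FDR of 0.05 by edgeR's quasi-likelihood test or DESeq2, 738 had an unadjusted p under 0.05, and the likelihood ratio test called 3. Without REPOP7 replicate 1, 7 genes passed the interaction test. Csf1r remained at 60.5% in RE mice and 61.2% in re mice, and Mpeg1 at 32.3% and 33.5%.

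To place day 7 within the time course, REPOP7 was set against mice that had eaten PLX5622 for 14 days (DEP14, n = 4, 3 RE and 1 re). No gene of 24169 passed an FDR of 0.05 by edgeR's quasi-likelihood test or DESeq2, 656 had an unadjusted p under 0.05, and the likelihood ratio test called 4. DEP14 replicate 2 was high in the genes that set REPOP7 replicates 2 and 3 apart, with 425 reads of Gpx3 and 235 of Fbln1, and DEP14 replicates 1 and 2 held lens reads, with 54 and 58 of Cryba1. Without these DEP14 libraries, or without REPOP7 replicates 2 and 3, the count stayed at 0. This comparison shares the REPOP7 mice with that against CD. Of the 21 genes 14 were tested and 2 had an unadjusted p under 0.05, Cyp26b1 and C1qc. C1qc, C1qb and Cx3cr1 had no read in the 4 DEP14 mice and passed the gene filter through REPOP7 alone. For these genes only a higher level in REPOP7 could be found. The 7 genes that were not tested had reads in too few mice of either group, so their levels were not compared. Csf1r was at 8.85 ± 2.11 CPM in DEP14 and Mpeg1 at 1.39 ± 0.925, with log2 fold changes of REPOP7 against DEP14 of 0.18 ± 0.129 and -0.0086 ± 0.417. A missed threshold does not show equal levels.

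Cyp26b1 was nearer to CD in DEP14, with 37 to 51 reads, than in REPOP7 (log2 fold change of REPOP7 against DEP14 -0.73 ± 0.189, unadjusted p 0.00138 and adjusted p 0.999, edgeR's quasi-likelihood test). It was at 5.79 ± 0.63 CPM in DEP14. In mice on day 5 of repopulation (REPOP5, n = 4) it was at 4.98 ± 0.793. On day 10 (REPOP10, n = 4) it was at 3.7 ± 0.559. Cyp26b1 ranged from 3.64 to 7.93 CPM on day 3 of repopulation and from 2.59 to 4.9 in REPOP7. On PLX5622 it ranged from 4.75 to 6.68 on day 2, 4.54 to 5.53 on day 5 and 4.17 to 6.9 on day 7. The ranges on days 10 and 21 of PLX5622 were 2.74 to 5.65 and 2.94 to 5.37. Low levels were thus not particular to repopulation. C1qb was at 0 in all 4 DEP14 mice, at 0.128 CPM in REPOP5, 0.129 in REPOP7 and 0.94 in REPOP10. The 16 DEGs together had 11 to 21 reads in DEP14, 16 to 20 in REPOP5, 13 to 35 in REPOP7 and 46 to 138 in REPOP10. The REPOP7 range overlapped those of DEP14 and REPOP5, and all REPOP10 mice lay above it. These neighbouring levels are given as a description.

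**Figure D4:**
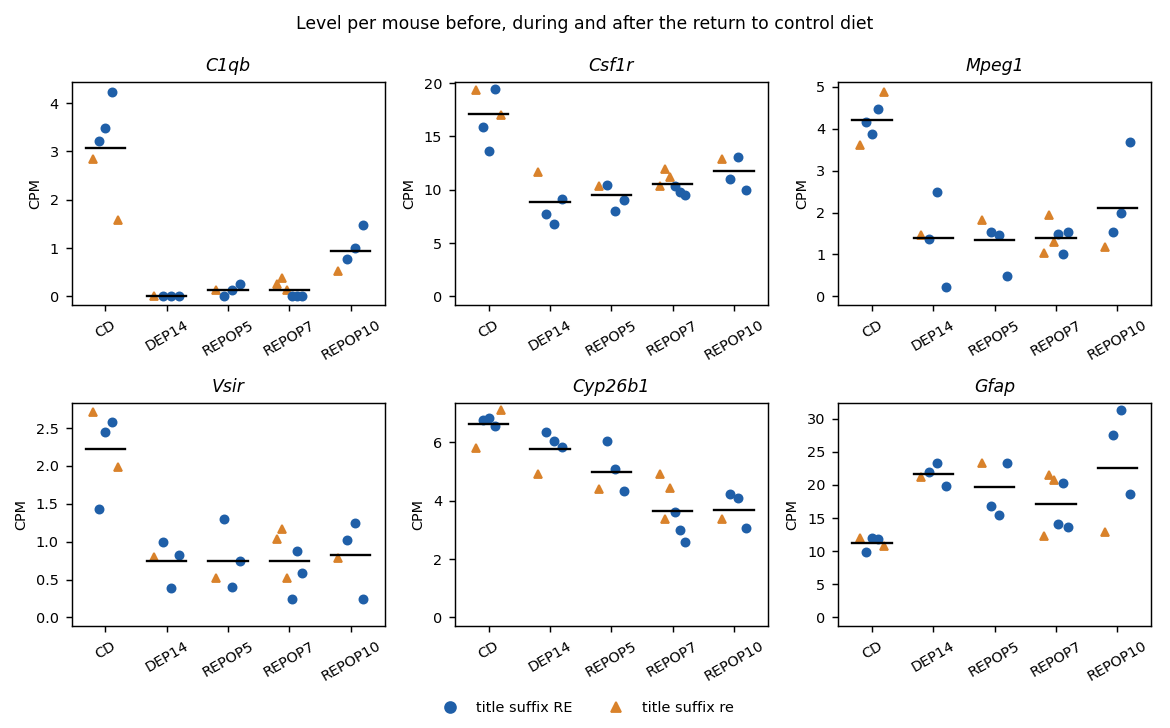
Level in CPM (linear axes) of 6 genes in each mouse of CD (n = 5), DEP14 (n = 4), REPOP5 (n = 4), REPOP7 (n = 6) and REPOP10 (n = 4), circles for title suffix RE, triangles for re and bars for group means. C1qb is near 0 from DEP14 to REPOP7, and Csf1r, Mpeg1 and Vsir lie below CD but above 0. Of the groups shown, Cyp26b1 has its lowest means in REPOP7 and REPOP10, and Gfap means are above CD in all 4 other groups.

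Across the 5 microglial lists, 61 of 63 genes were tested and 18 were lower at an FDR under 0.05, none higher. At an unadjusted p under 0.05, 43 were lower and none was higher, and in 23 every REPOP7 mouse lay below every CD mouse. Over all genes tested, the shares that were lower in these 3 ways were 0.0890%, 2.83% and 0.246%. The median log2 fold change was -1.6 (-1.29 with the genes at 0 in REPOP7 at their bounds). The lists were chosen with results of these data known and hold genes found in them, so these counts are no independent evidence of the direction.

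The other 18 lists cover the remaining cell types of the eye and general programmes, 363 genes of which 327 were tested. None passed an FDR of 0.05 by edgeR's quasi-likelihood test or by DESeq2, and the likelihood ratio test called 1, Gfap. At an unadjusted p under 0.05, 22 were lower (6.73%) and 12 higher (3.67%), against 2.83% and 2.89% of all genes tested. Of the 16 genes of border macrophages, monocytes and neutrophils 7 could be tested, and their median log2 fold change was 0.07. The neutrophil gene S100a9 had 26 reads in CD replicate 3 and 0 to 5 in the other CD mice, against 0 to 3 in REPOP7. Ms4a7, a gene of border macrophages, had 0 to 3 reads in CD and 1 to 4 in REPOP7 (FDR 0.822, edgeR's quasi-likelihood test).

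Müller glia and astrocytes, the macroglia of the retina, had a list median of 0.0033 over 20 genes. Gfap, the intermediate filament that rises in these cells under stress, had 93, 83, 93, 101 and 82 reads in CD and 95 to 166 (median 137.5) in REPOP7. In CPM no mouse overlapped, at 11.3 ± 0.942 and 17.1 ± 4.16 (log2 fold change 0.58 ± 0.143, unadjusted p 0.00071, FDR 0.453, edgeR's quasi-likelihood test). It was called in 3 of 21 alternatives, 1 of them without REPOP7 replicate 1 (FDR 0.0492). Stat3, the transcription factor of the cytokine response, also had every REPOP7 mouse above CD, at 80.7 ± 2.9 against 71.5 ± 3.71 CPM (FDR 0.804, same test). Glul, the glutamine synthetase of Müller glia, was at 1757 ± 118 and 1698 ± 70.8 CPM.

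Signals between neurons or glia and microglia, listed with some of their receptors, did not pass the test. Of 17 tested, the CSF1 receptor ligands Csf1 and Il34 had log2 fold changes of -0.11 ± 0.123 and -0.03 ± 0.143, and Cx3cl1, the ligand of CX3CR1, -0.07 ± 0.0668. The 95% interval for Il34 was -0.31 to 0.25. Cxcl12, a chemokine, had the smallest p of the list (0.0067, FDR 0.804, edgeR's quasi-likelihood test), at 81.2% of CD. Cytokine, chemokine and acute phase genes had a median of -0.12 over 15 tested of 26 listed, and interferon-stimulated genes -0.068 over 15. Complement C4b, in the former list, had 20 to 50 reads in CD and 36 to 70 in REPOP7 (FDR 0.804, same test), and Irf9, in the latter, had a log2 fold change of 0.15. Antigen presentation genes had a median of -0.22, with B2m, the light chain of class I molecules, at 80.2% of CD (unadjusted p 0.0143, FDR 0.804, same test).

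The neurons of the retina were represented by 71 genes in 3 lists. Rods and cones had a median log2 fold change of -0.047 (22 genes), inner retinal neurons 0.0093 (28) and synaptic genes -0.0096 (21). Pde6g and Gnat1 of the rod cascade were at -0.15 ± 0.054 and -0.12 ± 0.0466, Grm6, the glutamate receptor of ON bipolar cells, at -0.2 ± 0.0607 and Slc32a1, the vesicular GABA transporter, at -0.21. Grin1 and Dlg4 of the synapse were at -0.15 and -0.17. All 6 had an FDR of 0.804 by edgeR's quasi-likelihood test. Endothelial and pericyte genes had a median of -0.069 (18 genes). Of these, 4 were lower at an unadjusted p under 0.05, against 2.83% of all genes tested. Cdh5 and Tie1, an adhesion protein and a receptor of endothelium, were at 72.8% and 72.3% of CD (FDR 0.804 each, same test).

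Lists of neighbouring tissues varied between libraries. Pigment epithelium genes had a median of 0.62 (0.53 with the gene at 0 in CD, Mlana, at its bound), with 11 of 12 fitted above 0 and summed levels of 8.9 to 27.4 CPM in CD and 20.9 to 41.4 in REPOP7. The median was 0.16 in the RE mice alone and 1.25 in the re mice alone, which include REPOP7 replicates 2 and 3. Ttr, the carrier of thyroxine and retinol, had 17 to 55 reads in CD and 41 to 79 in REPOP7. Lens genes had a median of -0.54, which turned between the suffixes, at -1.62 in the RE mice alone and 0.72 in the re mice alone, and 22 of the reads of Cryba1 were in CD replicate 4 against 0 to 4 in the other 10 mice. Cryab, a crystallin that neural retina also uses, was at -0.16. Erythrocyte genes had a median of 0.5 over 5, with the highest levels of Hbb-bt and Alas2 in REPOP7 replicate 6 (27 and 28 reads), and oligodendrocyte genes, Sox10 among them, -0.083 over 7.

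Genes of cell division had a median of 0.026 over 14 tested, and -0.0075 with the gene at 0 in CD at its bound. Ccnb2, a mitotic cyclin, had 3 to 7 reads in CD and 7 to 12 in REPOP7 (FDR 0.804, edgeR's quasi-likelihood test), and Rrm2, a subunit of ribonucleotide reductase, had no read in CD and 1 in each of 4 REPOP7 mice. Immediate early genes (median 0.012 over 16, with Ier2 and Fosb at -0.19 and -0.2) and ribosomal protein genes (0.024 over 76, with Rpl12 and Rps27a at 0.22 and 0.19) held no called gene. The 13 protein-coding genes of the mitochondrial genome were all fitted below 0, with a median of -0.18. mt-Nd4 and mt-Cytb were at -0.18 and -0.12 (FDR 0.804 each, same test), and the mitochondrial share of counts was 2.89 to 4.71% in CD and 2.78 to 4.14% in REPOP7. Within the RE mice it was 4.25 to 4.71% in CD and 4.08 to 4.14% in REPOP7, without overlap. Within the re mice it overlapped, at 2.89 to 3.28% and 2.78 to 3.1%. The cause was not tested.

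**Figure D5:**
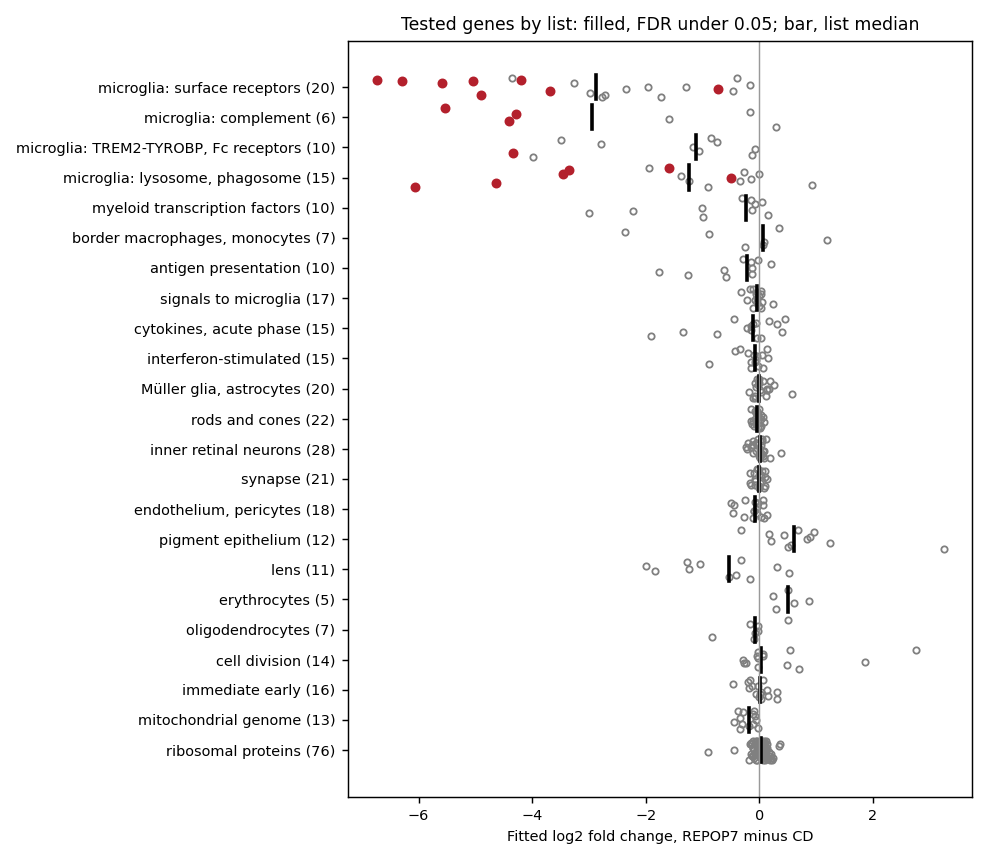
Fitted log2 fold change of REPOP7 against CD for each tested gene of 23 lists, 1 row per list with the number of tested genes, filled red for an FDR under 0.05 and open otherwise, with a bar at the list median. All 18 filled points are in 4 microglial lists and lie left of 0, and the medians of the lists of neurons and macroglia lie within 0.05 of 0.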

How the data were processed

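Retinal RNA of 65 mice was sequenced on the BGISEQ-500, and 6 REPOP7, 5 CD and 4 DEP14 mice were compared. The authors aligned reads to mm10 with HISAT2 and deposited raw counts per gene made with HTSeq. Versions, annotation and strand setting are not given in the sources used here. The deposited FPKM values were not used. Columns were matched to titles with case kept, and 50462 of 50686 gene identifiers were found in GENCODE M21.

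Genes with at least 1 count in at least 50% of the mice of a group were tested with edgeR 4.0.16 (R 4.3.3, quasi-likelihood F-test, TMM normalization) with the title suffix as an additive term, and p-values were adjusted by Benjamini-Hochberg over all genes tested. CPM used TMM library sizes, and SDs are between mice. Intervals of read ratios are 95% and exact, for counting error only. The 95% interval for Il34 instead came from the fitted log2 fold change and its SE, by a normal approximation. SEs of log2 fold changes were derived from the fold change and its F statistic. For genes with few reads in a group, such an SE can understate the counting error. Lower bounds use a floor of 3 counts per library, do not pool reads and are not comparable with the intervals of read ratios. P-values set the difference between groups against the variation between these mice, as each test models it. Alternatives were DESeq2 1.42.0, the likelihood ratio test, other filters and normalization, other model terms and leaving out mice. The scripts were tested on simulated data.

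Text names all DEGs, up to 6 called genes of each list or the 2 of smallest p, up to 10 called genes in no list, and Cx3cr1, Itgam, Trem2, Sall1 and Tmem119. Others were chosen after their values were seen, among them Csf1, Il34, Cx3cl1, Glul, Dct, Spi1 and Ikzf1. Members and lists were chosen with earlier results of these data known. A few genes that this rule names, 1 of the 21 called genes among them, are counted but not reported here.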

Additional observations from a re-analysis of the deposited data

Results flagged for a closer look

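Within groups of 4 to 10 mice, 89 sets of values of named genes and library measures were examined for a mouse far from the others by Dixon's criterion, and 5 were found, where chance gives about 1 in 20. In CD replicate 3, S100a9 was high at 3.35 CPM (nearest mouse 0.587). CD replicate 4 was high for Cryba1, at 2.58 CPM (nearest 0.387). REPOP7 replicate 2 was high for Laptm5, at 1.42 CPM (nearest 0.472), and for Tie1, at 5.43 CPM (nearest 3.66). REPOP7 replicate 6 was high for Hbb-bt, at 3.18 CPM (nearest 0.906).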

How the results depend on the processing

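All 21 genes lower in REPOP7 stayed lower in each of the 20 or 21 alternatives that tested them, and 9 stayed called in all (Tmem119, Selplg, Ctss, C1qa, Cx3cr1, C1qb, C1qc, Laptm5 and Mpeg1). The other 12 lost their call in at least 1, Csf1r only with the replicate block. The number of DEGs against CD was 25 by the likelihood ratio test, 9 with filterByExpr, 29 without a gene filter (4 higher), 8 with the replicate block and 10 without REPOP7 replicates 2 and 3, and 11 to 13 without single mice. At an FDR under 0.05 it was 36, 13, 82 (27 higher) and 13 in the first 4 of these, 33 (11 higher) with the replicate block and title suffix together, and 15 to 21 without single mice. Against DEP14, DEGs were 8 without a gene filter, 2 in a fit of all 16 groups and 8 with the replicate block and title suffix, and at an FDR under 0.05 these were 26, 6 and 15, with 4 by the likelihood ratio test. In the RE mice, DEGs were 18 by the likelihood ratio test, 2 with filterByExpr, 17 without a filter and 0 to 8 without single mice, and at an FDR under 0.05 13 by DESeq2, 32 by the likelihood ratio test, 30 without a filter and 0 to 10 without single mice. In the re mice, DEGs were 2 by DESeq2, 15 by the likelihood ratio test, 7 with filterByExpr and 2 without a filter, and at an FDR under 0.05 these were 4, 22, 8 and 4, and 0 to 0 without single mice. The interaction with the suffix called 3 genes by the likelihood ratio test, 33 without a filter and 0 to 7 without single mice. The cause of these differences was not tested.

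No label ties mice of the same replicate number, and the comparisons were made without pairing. The deviations of CD and REPOP7 mice with the same number correlated at 0.57 and 0.21 where both had the same suffix and at -0.45 and -0.66 where they did not, so this check of the pairing cannot be told apart from the suffix. With the replicate block and title suffix, Gpx3 and Fbln1 turned to log2 fold changes of -1.06 and -2.04. At 0 to 3 reads in a REPOP7 mouse, a low level of a transcript was not detectable.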

Other observations

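A few further genes, chosen after their values were seen, had no overlap between CD and REPOP7 without passing an FDR of 0.05 by edgeR's quasi-likelihood test. Of all 23585 genes tested, 58 (0.246%) had every REPOP7 mouse below CD and 32 (0.136%) every REPOP7 mouse above. Lack of overlap alone is therefore no evidence of a difference for these picked genes. Among genes of white blood cells, Ighm, the constant region of IgM, had 34 reads over the 5 CD mice and 7 over the 6 REPOP7 mice (log2 fold change -2.41, FDR 0.132). Vav1, a signalling protein of blood cells, had 14 reads against 1 (FDR 0.346), and Dock2, which steers their migration, had 30 against 8 (-2.04, FDR 0.375). Lcp1, an actin-bundling protein of white blood cells, was at 44.2% of the CD level (-1.15, FDR 0.516). Among genes with higher values, Slc43a3, a nucleobase transporter, was at 0.752 ± 0.255 CPM in CD and 1.65 ± 0.339 CPM in REPOP7 (1.06, FDR 0.463). Rfx5, a regulator of class II antigen presentation genes, was at 50.5 ± 1.39 and 60.9 ± 5.89 CPM (0.27, FDR 0.39).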
